A study of Homo sapiens with 60 samples.

Results

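Cadmium and mercury were compared directly in the human astrocytoma-derived cell line 1321N1 after 3 h of treatment. The comparison rested on 6 of the 60 libraries of the series, namely 3 libraries of cells given 2.3 µM cadmium chloride and 3 libraries of cells given 20 µM mercury chloride. The members were chosen by metal and time, with earlier results of these data known. Every gene with enough counts was tested, which left 12341 genes of 62703 in the table. The gene lists used below were also chosen with earlier results known, and the counts of their members are descriptions. All cells were kept in full medium (DMEM with 10% FBS), and 3 non-treated libraries, also of 3 h, served to show from which side a difference arose. The 2 doses were set by the study to be equally toxic after 48 h and differ in concentration, so that the metal and its dose cannot be told apart. The labels call the replicates technical, and p values then measure only the spread between these libraries.

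Cadmium and mercury are non-essential metals that bind thiol groups and displace zinc from proteins. Cells meet them with several transcriptional programs. The zinc sensor MTF1 drives metallothioneins, small cysteine-rich proteins that chelate metals, and the zinc exporter SLC30A1. HSF1 drives the cytosolic chaperones of the heat-shock response, NRF2 drives the enzymes of glutathione synthesis and redox defence, and ATF4 drives the genes of the integrated stress response when translation is attenuated. Stress and growth signals through MAP kinases add a layer of immediate-early genes.

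Total counts ranged from 2983533 to 3837241 over the 6 libraries and from 3248664 to 3283010 over the 3 non-treated ones, so that 1 CPM (a count scaled to the total of its library) was about 3 counts. Of 9 astrocyte marker genes, 6 had too few counts to be tested, with AQP4, S100B, and ALDH1L1 at 0 counts in all 9 libraries and GFAP at no more than 3 counts, whereas VIM lay between 4130 and 5580 CPM and CD44 between 387 and 433. The summed astrocyte markers were at 4540 to 5190 CPM with cadmium and 5040 to 6000 with mercury, and those of oligodendrocytes, microglia, and endothelium stayed at or under 2.07 CPM in every library. In bulk RNA, fewer cells of a type and less RNA per cell cannot be told apart. The 4 neuron markers summed to 9.46 to 18.3 CPM, most of it from SYT1 at up to 17.6 CPM. Of 4 mesenchymal genes, COL1A1 and COL1A2 were at 722 to 852 and 315 to 384 CPM, and DCN and PDGFRB at 3.72 to 8.08 and 4.91 to 14.8 CPM. Cadmium library 3 stood apart from its replicates: the SD of its log2 deviations from the group mean over 4985 well-counted genes was 0.175, against 0.134 for both others. Mercury library 2 followed with 0.157, against 0.12 and 0.124. What set these libraries apart was not tested, and the total counts and those of the stress lists are given below with and without them.

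At 3 h, the metals differed at 220 genes (1.78% of those tested) at an adjusted p under 0.05 in edgeR's quasi-likelihood test. Of these, 61 genes (0.494%) were higher with cadmium and 159 (1.29%) were higher with mercury. Beyond a log2 fold change (LFC, cadmium over mercury) of 1 in either direction lay 43 genes (0.348%), 10 of them (0.081%) on the cadmium side and 33 (0.267%) on the mercury side. The median LFC over all genes was -0.00284. The 3 libraries of each metal did not overlap for 158 of the 159 genes higher with mercury and for 55 of the 61 higher with cadmium, beside 9.51% and 7.84% of all genes tested in these directions. When the test itself was set against an LFC of 1, 9 genes remained: MT1X and TXNIP were higher with cadmium, and HBEGF, DDIT4, HMOX1, ATF3, SESN2, CHAC1, and HSPA6 were higher with mercury.

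**Figure D1:**
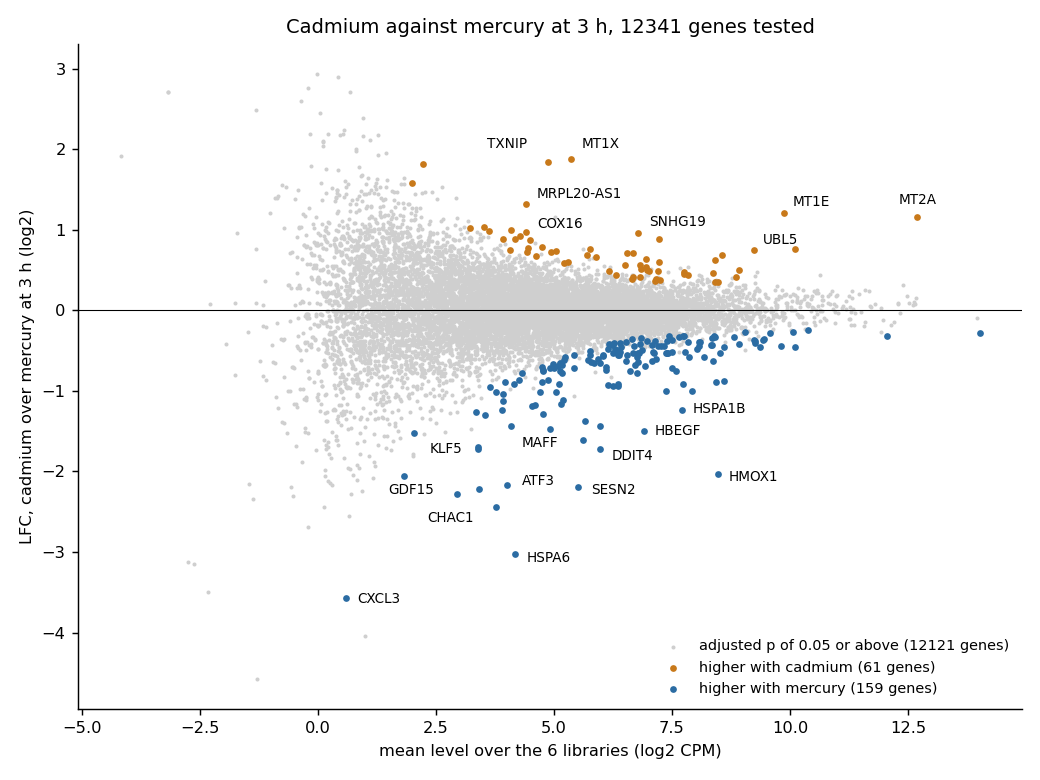
LFC of cadmium over mercury at 3 h (y axis, log2) against the mean level over the 6 libraries (x axis, log2 CPM), 1 point per gene tested. The 61 genes higher with cadmium (orange) include MT1X at 1.88 and MT2A at 1.16, and the 159 genes higher with mercury (blue) include HSPA6 at -3.03 and reach -3.57 for the low-count CXCL3; 12121 genes (grey) did not pass.

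The counts depended on single libraries more on the cadmium side than on the mercury side. Without cadmium library 3, 102 genes were higher with cadmium and 181 with mercury. Without mercury library 2, these numbers were 18 and 87. Leaving out cadmium library 1 or 2 gave 24 and 22 genes higher with cadmium and 84 with mercury in both cases, and leaving out mercury library 1 gave 30 and 120. In all 6 fits that each left out 1 library, 10 of the 61 genes higher with cadmium and 60 of the 159 higher with mercury were called in the same direction. None of the 220 was called in the opposite direction in any of them.

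Of the 61 genes higher with cadmium, 3 were metallothioneins, all of them beyond an LFC of 1. MT1X (ENSG00000187193.9, GRCh38 chr16:56682470-56684196, plus strand) was at 62.7, 76.9, and 54.0 CPM with cadmium, 13.9, 18.1, and 20.1 with mercury, and 5.74, 6.29, and 6.21 in non-treated cells. All 3 groups were thus apart, and MT1X was 3.69-fold higher with cadmium than with mercury (LFC 1.88, SE 0.18, adjusted p = 2.1e-12). MT1E (ENSG00000169715.15, chr16:56625475-56627112) was at 1303, 1435, and 1189 CPM with cadmium, 509, 645, and 544 with mercury, and 232, 273, and 249 in non-treated cells. It was 2.31-fold higher with cadmium (LFC 1.21, SE 0.10, adjusted p = 4e-14), again with 3 separate groups. MT2A (ENSG00000125148.7, chr16:56608584-56609497) was the most abundant of the family, at 10458, 11402, and 5543 CPM with cadmium and 4220, 3848, and 4196 with mercury, against 2584, 2639, and 2569 in non-treated cells. Cadmium library 3 lay far below the other two but above every mercury library. The LFC of MT2A was 1.16 (SE 0.19, adjusted p = 1.86e-05), 1.42 without cadmium library 3, and 0.44 (adjusted p = 0.794) when cadmium libraries 1 and 2 were left out together, an alternative added after the values were seen. MT1X and MT1E also passed in that fit, with LFCs of 1.63 and 1.07.

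These 3 genes were called higher with cadmium (beside 0.494% of all genes) among the 21 metallothionein, zinc transporter, and MTF1 genes tested of 32 listed (median LFC 0.125), and 0 were called higher with mercury. The number higher with cadmium was 3 in each of the 6 fits without a library. Without cadmium library 3, 1 member was called higher with mercury. Over non-treated cells, MT1X rose with both metals, by an LFC of 3.40 (adjusted p = 1.68e-20) after cadmium and 1.52 (adjusted p = 9.76e-06) after mercury. MT1E rose by 2.38 (adjusted p = 8.78e-28) and 1.17 (adjusted p = 1.03e-13). MT2A rose by 1.81 with cadmium (adjusted p = 1.56e-10), and its LFC with mercury was 0.65 (adjusted p = 0.053). MT1X, MT1E, and MT2A have near-identical relatives: 34.7%, 6.19%, and 6.11% of the 50-base words in their 3′ ends also occur in another gene, with MT1G and pseudogenes among these, and how their reads were split is uncertain.

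The zinc exporter SLC30A1 (ENSG00000170385.10, chr1:211571568-211579161, minus strand) was at 220, 205, and 181 CPM with cadmium, 153, 170, and 169 with mercury, and 52.5, 52.4, and 58.5 in non-treated cells. The cadmium libraries lay above the mercury libraries, but the LFC of 0.30 did not pass (adjusted p = 0.232), with an unadjusted 95% interval of 0.0653 to 0.536. The zinc importers SLC39A10 and SLC39A14 had LFCs of -0.08 and -0.15 (adjusted p = 0.951 and 0.768), and MTF1 itself had an LFC of 0.23 (adjusted p = 0.547).

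The promoters of MT1X and MT2A are shown because metal response elements, the sites that MTF1 binds, lie in them. The sequences are the 250 bases before the start of the gene from RefSeq (GRCh38.p14, plus strand), at chr16:56682220-56682469 for MT1X and chr16:56608334-56608583 for MT2A, with matches to the core TGCACNC or TGCGCNC on either strand in capitals. MT1X has 4 such matches and MT2A has 7.
MT1X: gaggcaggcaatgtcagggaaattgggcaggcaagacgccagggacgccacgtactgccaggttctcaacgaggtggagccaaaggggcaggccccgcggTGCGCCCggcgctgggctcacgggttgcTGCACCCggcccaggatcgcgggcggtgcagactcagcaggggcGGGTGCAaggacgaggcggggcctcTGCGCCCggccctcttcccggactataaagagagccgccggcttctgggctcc
MT2A: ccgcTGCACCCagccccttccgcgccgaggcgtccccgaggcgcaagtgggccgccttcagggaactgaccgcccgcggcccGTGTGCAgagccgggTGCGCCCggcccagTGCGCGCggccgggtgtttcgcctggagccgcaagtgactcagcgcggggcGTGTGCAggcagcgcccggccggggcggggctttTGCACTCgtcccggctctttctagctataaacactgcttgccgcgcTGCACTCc
Such a core occurs in 24.7% of 27305 promoters of the same length, in 33.9% of those of the genes tested, in 26 of 49 promoters (53.1%) of genes higher with cadmium, and in 39 of 135 (28.9%) of genes higher with mercury. These are counts of letters and not of bound sites.

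**Figure D2:**
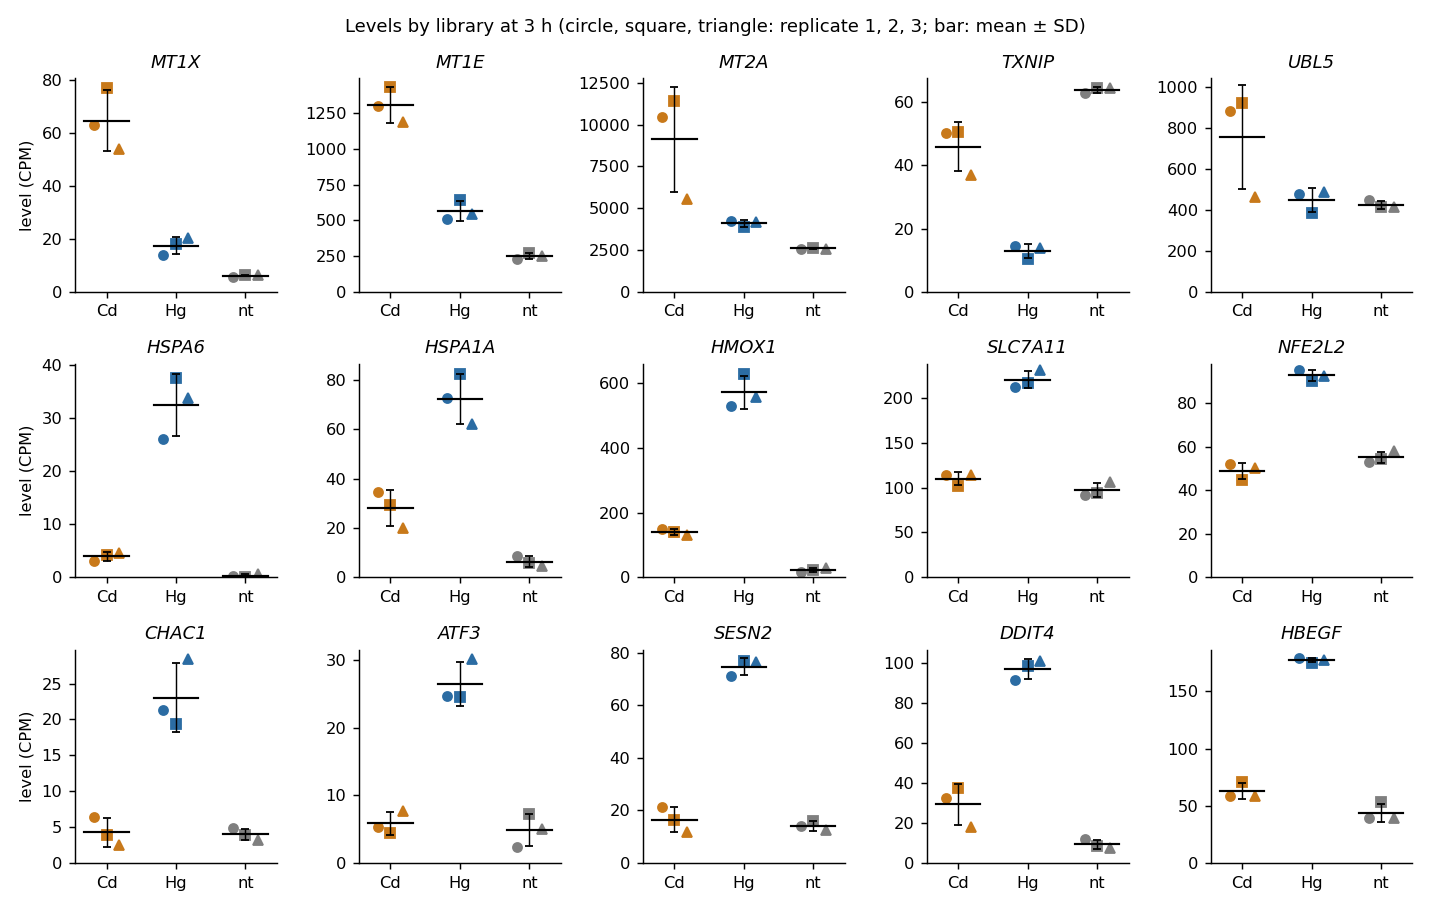
Levels in CPM (y axes, from 0) of 15 genes in the cadmium (orange), mercury (blue), and non-treated (grey) libraries at 3 h, with circle, square, and triangle for replicates 1, 2, and 3 and bars for the mean ± SD. MT1X, MT1E, and MT2A are highest with cadmium and TXNIP is lowest with mercury, whereas HSPA6, HMOX1, CHAC1, and SESN2 are highest with mercury; the third cadmium library of UBL5, at 462 CPM, lies among the mercury libraries.

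TXNIP (ENSG00000265972.6, chr1:145992435-145996579, minus strand), which binds and inhibits thioredoxin and limits glucose uptake, differed from the other direction. It was at 50.3, 50.7, and 36.9 CPM with cadmium and 14.5, 10.3, and 13.9 with mercury, whereas non-treated cells had 62.8, 64.4, and 64.4. The LFC of cadmium over mercury was 1.84 (SE 0.18, adjusted p = 1.01e-11). Relative to non-treated cells, TXNIP fell by 2.31 on the log2 scale with mercury (adjusted p = 1.42e-16), and its LFC with cadmium was -0.47 (adjusted p = 0.273).

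Across the 61 genes higher with cadmium, the median LFC was 0.33 for cadmium and -0.31 for mercury, each over the same non-treated libraries. Of these genes, 5 were called above non-treated cells with cadmium (0.203% of all genes tested were), 2 were called above with mercury (1.39%), and 11 were called below with mercury (0.154%). The calls over non-treated cells share the treated libraries with the comparison that chose the genes and are given as a description. Beside TXNIP, the genes that fell with mercury included ID1, a dominant-negative helix-loop-helix regulator, and HILPDA, a lipid droplet protein. ID1 was at 612, 576, and 524 CPM with cadmium, 415, 376, and 417 with mercury, and 622, 595, and 548 in non-treated cells (LFC 0.50, adjusted p = 9.87e-05). HILPDA was at 67.4, 72.7, and 63.6 CPM with cadmium, 41.2, 35.7, and 43.2 with mercury, and 64.3, 65.6, and 67.7 in non-treated cells (LFC 0.77, adjusted p = 0.000125). For both, the cadmium libraries lay near the non-treated ones and above all mercury libraries. Both genes, like H1-2, FAM83D, and PPP1R10, were called in all 6 fits that left out a library; all 5 were singled out after their values were seen.

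Of the 12 largest LFCs on the cadmium side among genes averaging 20 counts or more, 5 (MT1X, TXNIP, MRPL20-AS1, MT1E, and MT2A) passed in all 6 fits without a library. MRPL20-AS1, an antisense RNA at chr1:1399515-1402046, was at 34.9, 38.4, and 17.7 CPM with cadmium and 12.5, 10.1, and 13.9 with mercury (LFC 1.32, adjusted p = 0.00112), with 19.0, 26.9, and 23.6 in non-treated cells. The other 7 were STRADB, ZNF44, HGH1, TMCC1, COX16, SNHG19, and IFFO1, with LFCs of 0.93 to 1.03 and adjusted p of 0.0173 to 0.0448, and each lost its call in 4 or 5 of the 6 fits. The libraries of the metals overlapped for HGH1 and SNHG19. COX16 shares 47.1% of its 3′ words with the read-through gene SYNJ2BP-COX16, and STRADB shares 24.1% with a pseudogene.

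Short transcripts were frequent among the genes higher with cadmium, a pattern described after it was seen. The canonical transcript was shorter than 1000 bases for 15 of the 61 genes (24.6%), for 2 of the 159 genes higher with mercury (1.26%), and for 10.2% of all genes tested. The median length was 2150, 3910, and 3160 bases in the same order. Beside the 3 metallothioneins, these 15 included the subunits of the respiratory chain COX7A2, COX7C, and UQCR10, the ubiquitin-like splicing factor UBL5, the copper chaperone ATOX1, and the histones H1-2 and H4C3. UBL5 was at 883, 924, and 462 CPM with cadmium, 479, 383, and 486 with mercury, and 448, 413, and 414 in non-treated cells (LFC 0.75, adjusted p = 0.0172). COX7A2 was at 501, 605, and 298 CPM with cadmium, 320, 230, and 326 with mercury, and 271, 289, and 273 in non-treated cells (LFC 0.68, adjusted p = 0.0448). In both cases cadmium libraries 1 and 2 were high, and library 3 lay among the mercury libraries. At 6 h, the sign was turned for both, with LFCs of -0.67 and -0.73 (adjusted p = 0.0269 and 0.0175). UQCR10 and SNHG19 were turned as well (LFCs of -0.54 and -0.81, adjusted p = 0.0491 and 0.0472). Among the rest of the 15, the LFC at 6 h was negative but did not pass for COX7C, ATOX1, H1-2, H4C3, NOP10, and ANAPC11. It stayed positive for ID1, PDZD11, and the 3 metallothioneins. The 1261 genes with a short transcript took 19.5%, 20.4%, and 18.8% of the counts of the cadmium libraries, 18%, 17.8%, and 17.8% of those of the mercury libraries, and 18.1%, 17.9%, and 18.2% of those of non-treated cells. The part of library composition in these differences was not tested.

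On the mercury side, the cytosolic heat-shock genes were prominent. HSPA6 (ENSG00000173110.8, chr1:161524540-161526894, plus strand), a strictly inducible HSP70, was at 26.0, 37.5, and 33.8 CPM with mercury and 3.02, 4.17, and 4.65 with cadmium. Non-treated cells had 1, 0, and 2 counts of HSPA6, under the floor of 3 counts per library (0.897 CPM), so HSPA6 was at least 36.1-fold higher with mercury and at least 4.4-fold higher with cadmium than in non-treated cells. It was 8.15-fold higher with mercury than with cadmium (LFC -3.03, SE 0.26, adjusted p = 9.15e-14). HSPA1A (chr6:31815543-31817946), the main inducible HSP70, was at 72.7, 82.4, and 62.2 CPM with mercury, 34.5, 29.2, and 20.2 with cadmium, and 8.76, 5.99, and 4.43 in non-treated cells, so that the 3 groups were apart (LFC -1.38, SE 0.18, adjusted p = 9.23e-08). HSPA1B, its near-identical neighbour, had an LFC of -1.23 (adjusted p = 8.67e-09), and 6.76% of the 50-base words in the 3′ end of HSPA1A also occur in HSPA1B, so that part of the reads may be split between both genes.

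Of the 36 heat-shock genes tested of 37 listed, 16 were called higher with mercury (beside 1.29% of all genes) and 0 higher with cadmium in edgeR, with a median LFC of -0.27. At an unadjusted p under 0.05, 1 member was higher with cadmium, and DESeq2 called 0 in this direction. Among them were the HSP40 cochaperone DNAJB1 (LFC -0.90, adjusted p = 1.15e-07), the HSP70 cochaperone BAG3 (-0.63, adjusted p = 0.000994), ZFAND2A (-1.24, adjusted p = 0.00457), and HSPH1 (-0.53, adjusted p = 2.59e-06). The abundant HSP90AA1 and HSP90AB1 had LFCs of -0.28 and -0.31. Not every member passed: the constitutive HSPA8 had an LFC of -0.12 (adjusted p = 0.683). Over non-treated cells, 18 members were called higher with mercury (beside 1.39% of all genes) and 6 with cadmium (beside 0.203%). Without cadmium library 3 the list held 17 calls, without mercury library 2 it held 12, and over the 6 fits the number lay between 10, without cadmium library 1, and 17.

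The promoter of HSPA6 is shown for its heat-shock element, the inverted repeat that HSF1 binds. It is the 250 bases before the gene from RefSeq (GRCh38.p14, plus strand, chr1:161524290-161524539), with the 1 match to 3 alternating units (GAA, TTC, and GAA, or TTC, GAA, and TTC, with NN between units) in capitals at position -74 from the start.
HSPA6: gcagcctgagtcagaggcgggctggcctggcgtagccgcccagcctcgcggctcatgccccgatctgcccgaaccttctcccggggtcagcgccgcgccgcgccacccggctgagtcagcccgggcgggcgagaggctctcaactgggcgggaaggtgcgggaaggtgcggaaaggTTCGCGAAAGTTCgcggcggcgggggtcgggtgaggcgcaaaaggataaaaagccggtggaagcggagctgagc
This element of 3 perfect units occurs in 0.439% of the 27305 promoters, in 0.296% of those of genes tested, in 3 of 135 promoters (2.22%) of genes higher with mercury, in 3 of 15 (20.0%) of the heat-shock genes called, and in 0 of 49 promoters of genes higher with cadmium.

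**Figure D3:**
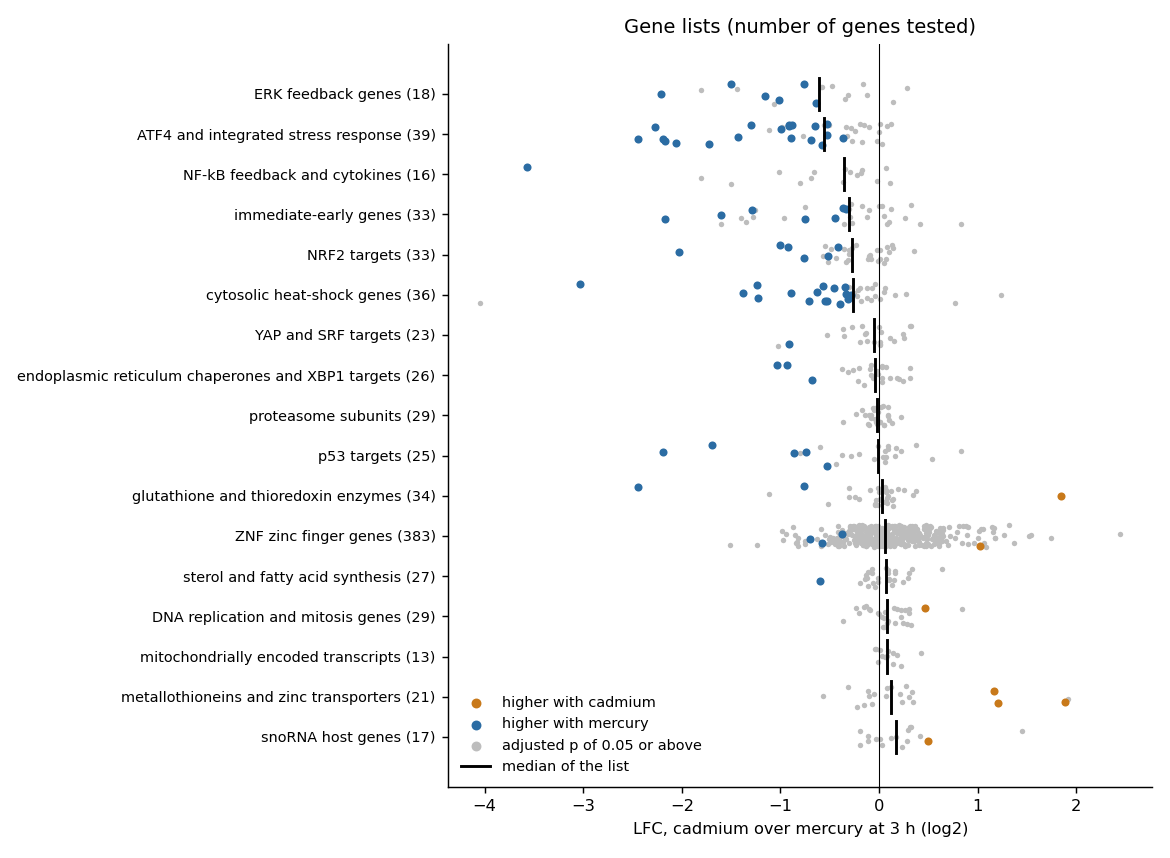
LFC of cadmium over mercury at 3 h (x axis, log2) for the genes of 17 lists (rows, with the number tested), with genes higher with cadmium in orange, genes higher with mercury in blue, other genes in grey, and the median as a black bar. The ERK feedback and ATF4 lists have medians of -0.61 and -0.56, and the metallothionein list holds 3 of the 7 orange points.

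HMOX1 (ENSG00000100292.18, chr22:35380361-35394214, plus strand), which degrades haem and is a target of NRF2, was high with both metals. It was at 529, 628, and 556 CPM with mercury, 150, 141, and 130 with cadmium, and 16.6, 21.6, and 28.1 in non-treated cells. The 3 groups did not overlap, and mercury exceeded cadmium 4.07-fold (LFC -2.03, SE 0.14, adjusted p = 2.08e-18). Over non-treated cells HMOX1 rose by an LFC of 4.69 with mercury (adjusted p = 5.59e-34) and 2.66 with cadmium (adjusted p = 2.86e-20).

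Of 33 NRF2 targets tested of 36 listed, 6 were called higher with mercury (beside 1.29% of all genes) and 0 with cadmium (beside 0.494%; median LFC -0.27). SLC7A11, the cystine importer that feeds glutathione synthesis, was at 212, 217, and 230 CPM with mercury, 114, 102, and 114 with cadmium, and 91.8, 94.0, and 106 in non-treated cells (LFC -1.0, adjusted p = 9.62e-10). NFE2L2, which encodes NRF2 itself, was at 95.3, 90.2, and 92.4 CPM with mercury, 52.0, 44.7, and 49.9 with cadmium, and 52.8, 54.5, and 57.9 in non-treated cells (LFC -0.92, adjusted p = 4.61e-06). For both genes the cadmium libraries were close to the non-treated ones and the mercury libraries stood above. GCLM, the modifier subunit of the rate-limiting enzyme of glutathione synthesis, had an LFC of -0.76 (adjusted p = 2.66e-08). TXNRD1 and NQO1 did not pass, with LFCs of -0.51 and -0.24 (adjusted p = 0.0545 and 0.149). Over non-treated cells, 9 members were called higher with mercury (beside 1.39% of all genes) and 1, HMOX1, with cadmium (beside 0.203%). The number of members higher with mercury was 4 without cadmium library 3, 4 without mercury library 2, and 4 to 5 over the 6 fits that left out 1 library.

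Of 39 genes of ATF4 and the integrated stress response tested of 40 listed, 19 were called higher with mercury (beside 1.29% of all genes) and 0 with cadmium, and 34 of the 39 had a negative LFC (median -0.56). CHAC1, which degrades glutathione, was at 21.3, 19.4, and 28.4 CPM with mercury, 6.37, 3.87, and 2.48 with cadmium, and 4.83, 3.89, and 3.25 in non-treated cells (LFC -2.44, SE 0.33, adjusted p = 1.52e-07). SESN2 (chr1:28259518-28282491), a stress-induced inhibitor of mTORC1, was at 71.0, 76.7, and 76.4 CPM with mercury, 21.1, 16.4, and 11.8 with cadmium, and 13.9, 15.9, and 12.4 in non-treated cells (LFC -2.19, SE 0.18, adjusted p = 2.33e-14). ATF3, a stress-induced transcription factor, was at 24.7, 24.5, and 30.2 CPM with mercury, 5.37, 4.47, and 7.75 with cadmium, and 2.42, 7.19, and 5.03 in non-treated cells (LFC -2.17, SE 0.29, adjusted p = 1.15e-07). In each of these genes the cadmium libraries overlapped with the non-treated ones, whereas all mercury libraries lay above both.

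DDIT4, an inhibitor of mTORC1, differed from these in that it rose with both metals. It was at 91.6, 98.4, and 101 CPM with mercury, 32.5, 37.6, and 18 with cadmium, and 11.8, 8.68, and 7.39 in non-treated cells (LFC -1.72, SE 0.18, adjusted p = 5.39e-11). The secreted stress cytokine GDF15 had 39, 55, and 37 counts with mercury and 6, 4, and 15 with cadmium (LFC -2.28, adjusted p = 1.34e-05), against 7, 5, and 4 in non-treated cells. ATF4 itself was at 506, 472, and 534 CPM with mercury, 261, 285, and 275 with cadmium, and 275, 276, and 263 in non-treated cells (LFC -0.88, adjusted p = 2.59e-06). The transcription factor DDIT3 (CHOP) had an LFC of -1.30 (adjusted p = 0.000156), the angiogenic factor VEGFA -1.44 (adjusted p = 0.000451), the pseudokinase TRIB3 -0.89 (adjusted p = 0.00426), and PPP1R15A, which directs the dephosphorylation of eIF2α, -0.92 (adjusted p = 1.6e-05). The serine synthesis enzyme PHGDH and the folate enzyme MTHFD2 had LFCs of -0.53, the glycyl-tRNA synthetase GARS1 -0.69, and the transporter subunit SLC3A2 -0.37, and PSAT1, ATF5, and SLC7A5 were among the 20 that did not pass. Over non-treated cells, 19 members of the list were called higher with mercury (beside 1.39% of all genes) and 2 with cadmium (beside 0.203%). The number higher than with cadmium was 16 without cadmium library 3, 16 without mercury library 2, and 16 to 19 over the 6 fits.

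Among ERK feedback and immediate-early genes, a minority passed. HBEGF, an EGF receptor ligand, was at 179, 175, and 178 CPM with mercury, 58.7, 70.9, and 58.3 with cadmium, and 39.6, 53, and 39.3 in non-treated cells, which left the 3 groups apart (LFC -1.50, SE 0.13, adjusted p = 1.93e-13). The small MAF protein gene MAFF was at 68.3, 80.4, and 74.3 CPM with mercury, 16.8, 21.5, and 34.7 with cadmium, and 23.9, 24.8, and 20.7 in non-treated cells (LFC -1.61, adjusted p = 1.03e-09). SPRY4, a feedback inhibitor of receptor tyrosine kinases, was at 16.2, 25.6, and 10.7 CPM with mercury and 3.02, 2.68, and 5.58 with cadmium (LFC -2.21, adjusted p = 0.000923). The phosphatases DUSP5 and DUSP6, which act on ERK, had LFCs of -1.16 and -1.01 (adjusted p = 3.84e-05 and 0.000522), and the zinc finger factor EGR1 had -1.28 (adjusted p = 5.98e-05).

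Of 18 ERK feedback genes tested of 23 listed, 6 were called higher with mercury (beside 1.29% of all genes) and 0 with cadmium (median LFC -0.61), and of 33 immediate-early genes tested of 37 listed, 7 were higher with mercury and 0 with cadmium (median LFC -0.30). JUN, DUSP1, and FOS did not pass (LFCs of -0.13, -0.59, and 0.83, adjusted p = 0.559, 0.354, and 0.802). Over non-treated cells, 16 of the immediate-early genes were called higher with mercury (beside 1.39% of all genes) and 3 with cadmium (beside 0.203%). The ERK list held 8 calls without cadmium library 3 and 5 without mercury library 2, and the immediate-early list 6 and 5. Over the 6 fits that left out 1 library, the ERK list held 4 to 8 calls and the immediate-early list 5 to 6. KLF5, a growth-related transcription factor, was at 18.9, 18.3, and 11.6 CPM with mercury and 3.35, 5.96, and 5.27 with cadmium (LFC -1.72, adjusted p = 0.000424), with 5.43, 10.5, and 5.62 in non-treated cells.

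Of 26 endoplasmic reticulum chaperones and XBP1 targets, 3 were called higher with mercury (beside 1.29% of all genes) and 0 with cadmium (beside 0.494%). The 3 were XBP1 (LFC -0.94, adjusted p = 6.27e-09), the cochaperone DNAJB9 (-1.04, adjusted p = 0.0127), and HERPUD1 (-0.68, adjusted p = 0.00551). XBP1, the transcription factor of the unfolded protein response, was at 94.7, 110, and 94.5 CPM with mercury, 54.7, 50.7, and 50.9 with cadmium, and 55.0, 60.5, and 58.2 in non-treated cells. The main chaperone HSPA5 had an LFC of -0.06 (adjusted p = 0.825). The median LFC of the list was -0.04, and DNAJB9 and HERPUD1 are known to be induced in the stress of this compartment. The XBP1 list held 2 calls without cadmium library 3, 1 without mercury library 2, and 1 without cadmium library 2.

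Among 25 p53 targets, 5 were higher with mercury (beside 1.29% of all genes) and 0 with cadmium (median LFC -0.01). The number was 6 without cadmium library 3, and 3 without mercury library 2 or without cadmium library 1. They were SESN2, PLK3, BBC3, CDKN1A, and PMAIP1; SESN2 and PMAIP1 are known to respond to ATF4 as well, and SESN2 is also in the ATF4 list. PLK3, a stress kinase, was at 17.9, 14.2, and 16.3 CPM with mercury and 5.70, 3.87, and 5.27 with cadmium (LFC -1.70, adjusted p = 0.000369), with 6.34, 8.08, and 7.69 in non-treated cells. The p53 ubiquitin ligase MDM2 had an LFC of -0.05 (adjusted p = 0.929). Of 34 glutathione and thioredoxin enzymes, TXNIP was higher with cadmium, and CHAC1 and GCLM were higher with mercury (median LFC 0.0309). CHAC1 and GCLM are both also members of lists above. Of all genes, 0.494% and 1.29% were called in these directions. Of 16 NF-kB feedback genes and cytokines, the chemokine CXCL3 was called higher with mercury (adjusted p = 0.0455), beside 1.29% of all genes. It had 6, 16, and 8 counts with mercury, 0, 2, and 0 with cadmium, and 0, 8, and 2 in non-treated cells. CXCL3 was at least 3.01-fold higher with mercury, against the floor of 3 counts per library, and it passed in 0 of the 6 fits that left out a library.

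The remaining lists held few calls or none, beside 0.494% of all genes called higher with cadmium and 1.29% higher with mercury. Of 29 proteasome subunits and 13 mitochondrially encoded transcripts, 0 were called in either direction (median LFCs of -0.02 and 0.08). At an unadjusted p under 0.05 in edgeR, 2 proteasome subunits were higher with mercury and 0 with cadmium, 0 mitochondrial transcripts were in either direction, and DESeq2 called 0 of both lists. Of 23 YAP and SRF targets, the kinase gene LATS2 was higher with mercury (LFC -0.91, adjusted p = 0.00393). Of 29 genes of DNA replication and mitosis, the helicase subunit MCM7 was higher with cadmium (LFC 0.47, adjusted p = 0.0365), and of 17 snoRNA host genes SNHG8 was (LFC 0.49, adjusted p = 0.0367); MCM7 kept its call in 2 and SNHG8 in 0 of the 6 fits. Of 383 ZNF genes tested of 476, ZNF44 was higher with cadmium (LFC 1.02, adjusted p = 0.0268) and 3 were higher with mercury, ZNF703 with the largest change (LFC -0.70, adjusted p = 0.0416), beside 0.494% and 1.29% of all genes, which gives no result about ZNF genes as a group. ZNF44 and ZNF703 each passed in 1 of the 6 fits, and in 5 of the 6 no ZNF gene was called higher with mercury. For the other lists with 0 members called higher with cadmium in edgeR, those higher at an unadjusted p under 0.05 numbered 0 for ATF4, NRF2, ERK feedback, NF-kB, and XBP1 targets, 1 for sterol and fatty acid synthesis, 2 for immediate-early genes and for p53 targets, and 3 for YAP and SRF targets. DESeq2 called 1 of the last and 0 of the others. In the mercury direction, 1 metallothionein or zinc transporter gene had an unadjusted p under 0.05, and DESeq2 called 0.

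Most genes higher with mercury were also called above non-treated cells, in libraries shared with the comparison that chose them. Of the 159 genes higher with mercury, 106 were called above non-treated cells with mercury and 9 with cadmium, and 0 were called below with either metal. Because the treated libraries are shared, these counts are given as a description. Their median LFC over non-treated cells was 0.63 with mercury and -0.03 with cadmium. Over all genes, 25 (0.203%) rose and 0 (0%) fell with cadmium at 3 h, and 172 (1.39%) rose and 19 (0.154%) fell with mercury. At an unadjusted p under 0.05 in edgeR, 394 genes were lower with cadmium than in non-treated cells, and DESeq2 called 5. Both metals were set against the same 3 non-treated libraries, and the values are therefore given side by side.

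**Figure D4:**
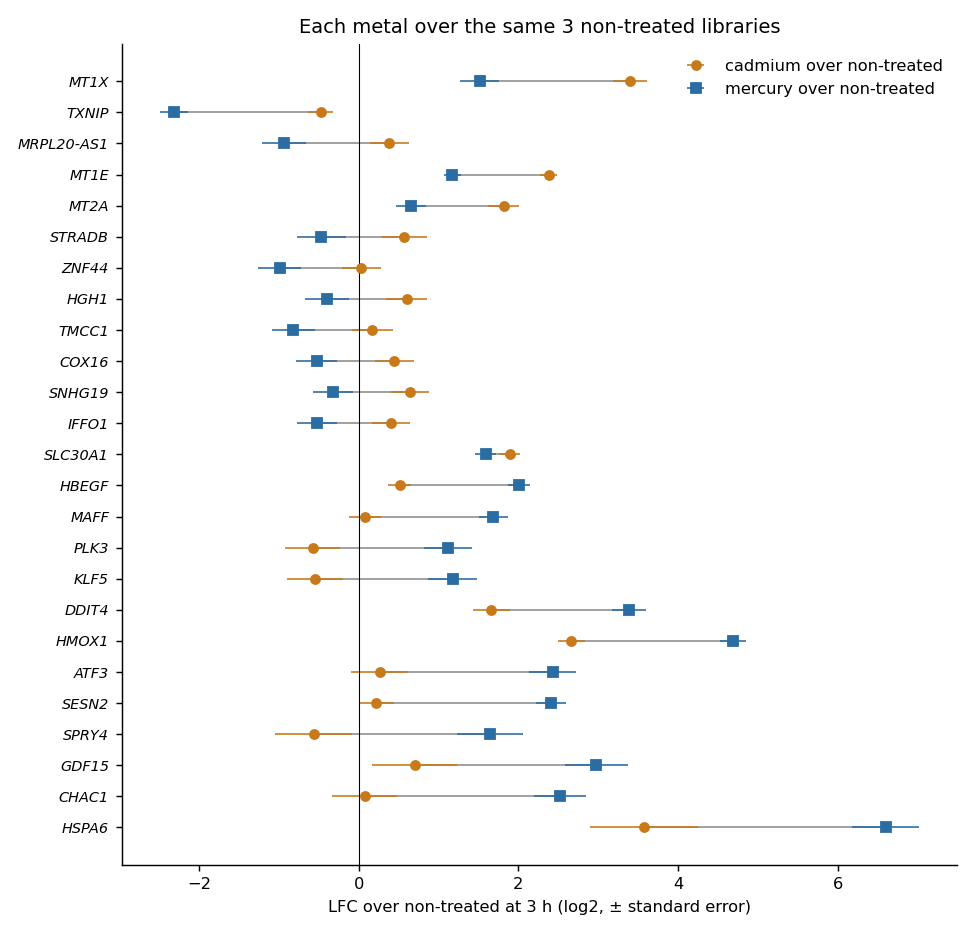
LFC over non-treated cells at 3 h (x axis, log2, with standard errors) for cadmium (orange circles) and mercury (blue squares). Shown are SLC30A1 and, among genes called with a mean of at least 20 counts, the 12 with the largest difference in each direction. MT1X lies at 3.40 and 1.52, HMOX1 at 2.66 and 4.69, and TXNIP at -0.47 and -2.31; the fitted LFCs of HSPA6 depend on the prior count, as non-treated cells were under the floor.

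The libraries of 1.5 h and 6 h were not used to choose the genes. Of the 159 genes higher with mercury at 3 h, 33 were also called higher with mercury at 1.5 h (0.535% of all genes were), and 45 at 6 h (2.14%). Called in the opposite direction were 0 at 1.5 h (0.122%) and 3 at 6 h (1.64%), and the LFC had the same sign for 129 and 131 of the 159. Of the 61 genes higher with cadmium, 4 were called in the same direction at 1.5 h (0.122% of all genes were) and 8 at 6 h (1.64%). Called in the opposite direction were 1 at 1.5 h (0.535%) and 5 at 6 h (2.14%), and the LFC had the same sign for 46 and 33 of the 61. At 6 h the median LFC was -0.25 for the mercury genes and 0.07 for the cadmium genes.

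Metallothioneins were not called higher with cadmium at 1.5 h. The LFCs of MT1X and MT2A were then -0.04 and -0.07 (adjusted p = 0.972 and 0.941), and MT1E was higher with mercury (-0.43, adjusted p = 0.0214). At 6 h and 12 h the LFCs were 2.65 and 3.89 for MT1X, 2.16 and 3.66 for MT1E, and 0.66 and 2.30 for MT2A. At 24 h they were 4.49 for MT1X, 3.52 for MT1E, and 2.97 for MT2A. The course was thus not a steady rise for MT2A, which was lower at 6 h than at 3 h, or for MT1E, which was highest at 12 h. SLC30A1 turned from higher with mercury at 1.5 h (LFC -0.71, adjusted p = 0.000193) to higher with cadmium at 6 h (LFC 1.33, adjusted p = 3.14e-13), with 3 h in between. TXNIP had its largest difference at 3 h, with 0.69 at 1.5 h and 0.74 at 6 h (adjusted p = 0.0091 and 0.00577), and 0.14 (adjusted p = 0.784) at 12 h.

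For genes higher with mercury, the course differed from gene to gene. HSPA6 had an LFC of -2.85 at 1.5 h, -3.03 at 3 h, and -0.92 at 6 h (adjusted p = 0.00121 at 1.5 h and 3.43e-05 at 6 h). HMOX1 had -2.06, -2.03, and -0.74, and again -2.41 at 24 h (adjusted p = 1.08e-23). CHAC1 was higher with mercury at every time point, between -1.48 at 6 h and -2.44 at 3 h. HSPA1A had -1.47 at 1.5 h and -0.70 at 6 h and did not pass at 12 h (LFC 0.16, adjusted p = 0.663). Between 3 h and 1.5 h the difference of the metals itself changed for 20 genes (0.162%), and between 3 h and 6 h for 214 (1.73%).

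**Figure D5:**
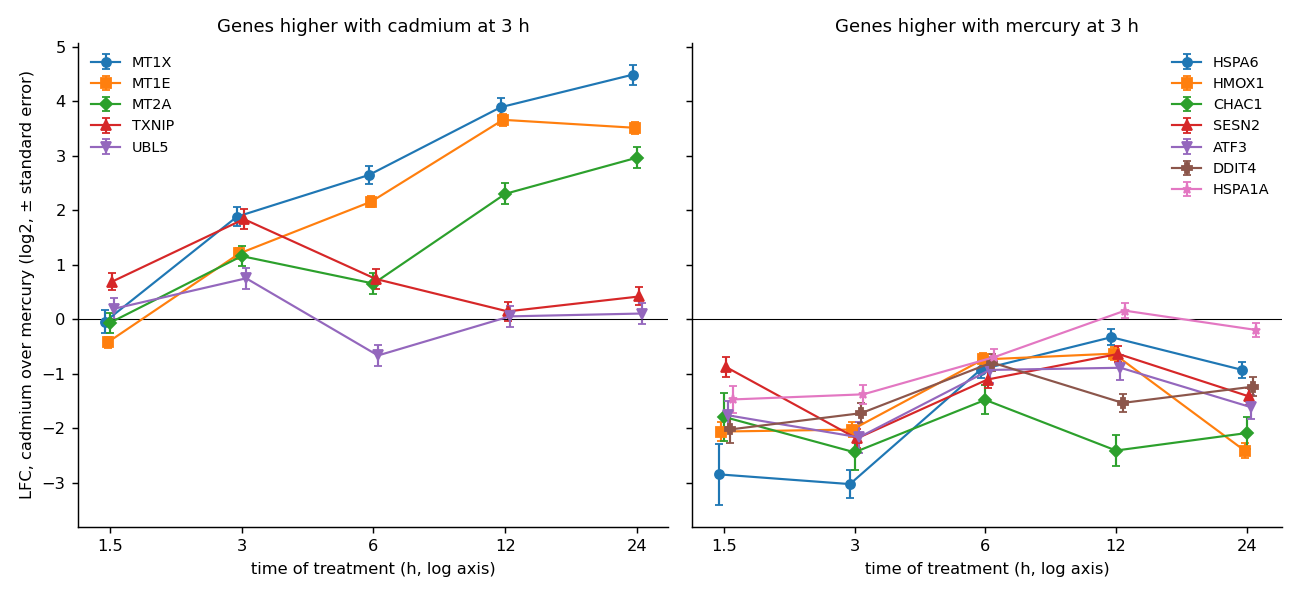
LFC of cadmium over mercury (y axis, log2, with standard errors) at 5 time points from 1.5 to 24 h (x axis, log scale) for 5 genes higher with cadmium at 3 h (left) and 7 higher with mercury (right). MT1X, MT1E, and MT2A begin near or under 0 at 1.5 h and reach 4.49, 3.52, and 2.97 at 24 h, whereas HSPA6 lies at -2.85 and -3.03 at 1.5 and 3 h and at -0.92 at 6 h.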

How the data were processed

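RNA of 1321N1 cells was sequenced from the 3′ end (QuantSeq FWD). The authors aligned 100-base reads to GRCh38 with STAR 2.7.9a, counted them strand-specifically on GENCODE v43 with GenomicAlignments in Union mode, which drops reads on more than 1 gene, and deposited counts per gene without normalization.

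All 60 libraries (20 groups of 3) entered 1 model in edgeR 4.0.16 (R 4.3.3), with TMM factors and a coefficient per metal and time, after filterByExpr (minimum count 10, minimum total 15). Contrasts were tested by the quasi-likelihood test, 2-sided, with Benjamini-Hochberg adjustment over 12341 genes at 0.05. LFC is log2, and SE is its standard error. CPM uses the total counts of a library over the genes tested, multiplied by its TMM factor. The members, gene lists, and tests were chosen with earlier results of these data known. Genes named were the 12 largest LFCs per direction among genes called with a mean of at least 20 counts, MT1E, MT1X, MT2A, SLC30A1, HMOX1, and the 2 called members with the largest change of each list; other genes, the tests of changes over time, the transcript lengths, and the promoter of MT2A were added after values were seen. Floors are 3 counts per library and cover counting error only.

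Alternatives were DESeq2 1.42.0, RLE factors, other filters, a replicate block, a fit of the groups compared only, glmTreat, and leaving out libraries. The scripts were tested on simulated data. Transcript lengths came from GENCODE v44 and promoters from RefSeq (28 of 35 named genes matched). No 2 replicates were copies of each other, with a lowest chi-square per degree of freedom of 2.00 among the libraries of these groups. The result of 1 gene named by the rule is not reported here.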

Additional observations from a re-analysis of the deposited data

Results flagged for a closer look

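The genes below were named in the report, and their difference between the metals changed with time, by a test of the change itself in edgeR's quasi-likelihood model, adjusted over all genes. Most of them were named for their values at 3 h, and the test of the change uses the same 3 h libraries. A larger difference at 3 h than at the other time was thus favoured in advance, and the p values do not allow for this.

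From 1.5 h to 3 h, the LFC of cadmium over mercury rose by 1.93 for MT1X (adjusted p = 1.53e-05), by 1.64 for MT1E (adjusted p = 1.02e-12), by 1.23 for MT2A (adjusted p = 0.0159), by 1.01 for SLC30A1 (adjusted p = 0.000485), and by 1.15 for TXNIP (adjusted p = 0.0137). For SESN2 the change was -1.31 (adjusted p = 0.00673) and for XBP1 -0.79 (adjusted p = 0.00648). MT1X, MT1E, and SLC30A1 passed in all 12 fits that each left out 1 library of the 4 groups. TXNIP and MT2A passed in 6 of 12, and both lost the call without cadmium library 1 or 2 of 3 h, mercury library 2 of 3 h, cadmium library 1 or 3 of 1.5 h, or mercury library 2 of 1.5 h. SESN2 lost it without cadmium library 3 of 3 h or of 1.5 h, and XBP1 without mercury library 2 of 1.5 h.

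Taken as 3 h minus 6 h, the difference of the metals was larger on the mercury side at 3 h for HSPA6 (-2.10, adjusted p = 2.41e-05), HBEGF (-1.36, adjusted p = 8.42e-06), HMOX1 (-1.29, adjusted p = 1.05e-05), MAFF (-1.11, adjusted p = 0.0119), SESN2 (-1.08, adjusted p = 0.00751), and DDIT4 (-0.93, adjusted p = 0.0264). It was larger on the cadmium side at 6 h for SLC30A1 (-1.03, adjusted p = 9.27e-05) and MT1E (-0.95, adjusted p = 2.26e-05). It was larger on the cadmium side at 3 h for TXNIP (1.10, adjusted p = 0.0119). For SNHG19 (1.77, adjusted p = 0.00151), IFFO1 (1.29, adjusted p = 0.0386), and SNHG8 (0.76, adjusted p = 0.0225), the sign of the LFC turned. These were higher with cadmium at 3 h, and their LFCs at 6 h were -0.81, -0.36, and -0.27. At 6 h SNHG19 passed (adjusted p = 0.0472), and IFFO1 and SNHG8 did not (adjusted p = 0.518 and 0.329). HSPA6, HBEGF, HMOX1, SESN2, SLC30A1, MT1E, and SNHG19 passed in all 12 fits. IFFO1 passed in 5, SNHG8 in 6, and DDIT4 in 7 of 12, and TXNIP and MAFF in 9. TXNIP lost the call without cadmium library 2 or mercury library 2 of 3 h or mercury library 2 of 6 h, and MAFF without cadmium library 1 or 2 of 3 h or mercury library 1 of 6 h. DDIT4 lost it without cadmium library 3 or mercury library 2 or 3 of 3 h, or library 1 of either metal at 6 h. For IFFO1 these were library 1 or 2 of either metal at 3 h, cadmium library 1 or 2 of 6 h, and mercury library 2 of 6 h. For SNHG8 they were cadmium library 2 and mercury libraries 2 and 3 of 3 h, cadmium library 1 of 6 h, and mercury libraries 1 and 2 of 6 h.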

How the results depend on the processing

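Leaving out 1 library at a time, the genes that differed numbered 105 to 283, with 18 to 102 higher with cadmium and 84 to 181 higher with mercury, and beyond an LFC of 1 there were 33 to 53, with 6 to 18 and 27 to 39. Leaving out cadmium libraries 1 and 2 together, with the remaining library taken to vary like the other groups, gave 41 genes, 6 and 35 by direction, and 25 beyond an LFC of 1, 4 and 21. In that fit 1 and 5 of the genes higher with cadmium were also higher at 1.5 h and 6 h, and 19 and 21 of those higher with mercury. Leaving out cadmium library 3 and mercury library 2 together gave 139 genes, 38 and 101. Both were added after the data were seen. DESeq2 called 324 genes, 96 and 228. Testing against an LFC of 1 with glmTreat gave 9 genes, 2 and 7. With only the libraries of the groups compared, 7 genes were higher with cadmium at 3 h and 1.5 h, in place of 4. The cause of these changes was not tested. None of the 220 calls was reversed by any alternative.

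With a replicate block, 217 genes differed, 61 and 156. Deviations of cadmium and mercury libraries of the same number correlated at 0.074, -0.323, and -0.224, and 0 of 3 cadmium libraries correlated best with the mercury library of its own number, and no pairing was assumed. STRADB (adjusted p = 0.0505) and CXCL3 (adjusted p = 0.0506) did not pass under the block.

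At about 3 counts per CPM, low genes were measured with few counts. In the list of metallothionein, zinc transporter, and MTF1 genes, 11 of 32 members were not tested. The parts of sequencing depth and of absent expression in this were not tested.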

Other observations

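Promoters of the genes called were also searched for the antioxidant response element core (TGACNNNGC) and the core of the element bound by ATF4 with C/EBP proteins (TGATGNAA), on either strand of the 250 bases before the start. The first was found in 26 of 135 promoters (19.3%) of genes higher with mercury and 3 of 49 (6.12%) of genes higher with cadmium, beside 12.1% of promoters of the genes tested. The second was found in 6 of 135 (4.44%) and 0 of 49, beside 1.34%. By list, the first was in 1 of 4 promoters of called NRF2 targets and 5 of 15 of called heat-shock genes. The second was in 2 of 17 promoters of called ATF4 genes. Also searched were the sequence TGACGTCA and the CArG box (CCWWWWWWGG, with W for A or T). TGACGTCA was in 5 of 135 (3.7%) and 1 of 49 (2.04%), beside 3.06%, and the CArG box in 4 of 135 (2.96%) and 0 of 49, beside 1.01%. These shares are descriptions of letters in these windows and were not tested.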
